A study of Mus musculus with 4 samples.

Results

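Collagens and laminins, the main structural proteins of the extracellular matrix, were followed in epididymal white fat during 6 days of β3-adrenergic stimulation. The genes were chosen by name alone: every gene whose single symbol in the array's probe annotation is Col, a number, a and a number, or Lama, Lamb or Lamc and a number. The rule gave 40 of the 8251 genes with a single symbol, 31 for collagen chains and 9 for laminin chains, read by 58 probe sets. Each gene was represented by the probe set with the highest mean over the 4 arrays.

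The RNA came from the epididymal fat of male C57 BL6 mice aged 3 to 4 months and was pooled before hybridization. There were 4 groups: control mice, and mice that received CL 316243, which stimulates β3-adrenergic receptors on adipocytes, for 1, 3 or 6 days at a rate of 3 nmol/hr. The titles of 2 arrays write the compound as 316234. No source used here states how many mice made up a pool, how the compound was delivered or how the control mice were handled. Each group had 1 array, so there is no replicate check and no p-value, and the number of arrays limits the precision.

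Collagens are built from chains that wind around each other in a helix. Fibrillar collagens (types I, III and V) form the cables of connective tissue, collagen VI forms fine beaded filaments around cells, and collagen IV forms the network of the basement membrane, the sheet that surrounds each fat cell and each capillary. Laminins are cross-shaped basement membrane proteins, each made of an alpha, a beta and a gamma chain, which cells bind through integrins and dystroglycan. In fat, this matrix holds the lipid-filled cells together and is remodelled when they shrink, swell or are replaced.

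Values are scaled intensities in linear array units. Values were raised to a floor of 174 units before ratios were taken, and a gene is said to have risen or fallen only where the floored values of 2 arrays differed by 2-fold or more. A fold against a value at the floor is written as at least that fold. In bulk tissue, fewer cells of a type and less RNA per cell cannot be told apart. All 8 measured fat cell markers, among them Adipoq and Fabp4, lay above the floor on every array, and between 59.9% and 60.1% of the 12422 probe sets per array did. The best available gauge of measurement error was how far 2 probe sets of one gene disagreed, taken from 911 genes with both above the floor on average. For 95% of these genes the changes given by the 2 probe sets differed by no more than 2.48-fold for day 1 against control. The same limit was 2.0-fold for day 3 and 1.96-fold for day 6, and 2.3-fold for day 3 against day 1. These figures hold no variation between animals. The 3 comparisons with control share the control array.

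The upstream regions of 5 members are shown because the results turn on these genes: Col4a1 and Col4a2, neighbours that point away from each other and moved side by side, and Lamb1, Lama2 and Lamb2, the laminin genes with the largest changes. Each is 300 bases long, from 250 before to 50 after the annotated start, 5′ to 3′ on the strand of the gene, from RefSeq on GRCm38.p6. In the first pair, capitals mark the 78 bases that both windows hold, read from opposite strands; the annotated starts lie 21 bases apart.
Col4a1 (chr8:11312777-11313076, minus strand): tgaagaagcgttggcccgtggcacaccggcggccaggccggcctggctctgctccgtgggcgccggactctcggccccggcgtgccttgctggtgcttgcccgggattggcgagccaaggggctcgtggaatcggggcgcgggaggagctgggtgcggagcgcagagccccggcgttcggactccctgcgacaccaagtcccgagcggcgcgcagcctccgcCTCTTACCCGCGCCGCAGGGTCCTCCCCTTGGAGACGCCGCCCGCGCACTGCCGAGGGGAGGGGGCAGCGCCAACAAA
Col4a2 (chr8:11312555-11312854, plus strand): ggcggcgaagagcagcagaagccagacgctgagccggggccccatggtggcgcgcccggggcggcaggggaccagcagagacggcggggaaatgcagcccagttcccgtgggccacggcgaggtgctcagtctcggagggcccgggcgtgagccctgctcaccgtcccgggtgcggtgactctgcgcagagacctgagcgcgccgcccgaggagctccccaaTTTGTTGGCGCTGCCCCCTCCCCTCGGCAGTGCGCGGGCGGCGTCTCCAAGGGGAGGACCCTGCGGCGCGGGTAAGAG
In the laminin genes, capitals mark matches to the GC box (GGGCGG), the CCAAT box (CCAAT) or the TATA box (TATAAA) on either strand.
Lamb1 (chr12:31265043-31265342, plus strand): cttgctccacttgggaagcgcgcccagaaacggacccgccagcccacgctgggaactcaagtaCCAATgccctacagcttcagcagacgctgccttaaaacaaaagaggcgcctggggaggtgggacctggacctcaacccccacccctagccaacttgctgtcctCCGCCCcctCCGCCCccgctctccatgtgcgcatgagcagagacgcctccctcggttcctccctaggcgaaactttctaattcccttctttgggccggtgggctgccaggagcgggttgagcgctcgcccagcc
Lama2 (chr10:27616893-27617192, minus strand): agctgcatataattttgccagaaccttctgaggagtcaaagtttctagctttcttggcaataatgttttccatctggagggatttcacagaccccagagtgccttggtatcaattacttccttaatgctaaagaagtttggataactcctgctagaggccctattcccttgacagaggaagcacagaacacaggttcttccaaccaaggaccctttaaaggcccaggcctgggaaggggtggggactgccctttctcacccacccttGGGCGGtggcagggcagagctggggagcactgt
Lamb2 (chr9:108479612-108479911, plus strand): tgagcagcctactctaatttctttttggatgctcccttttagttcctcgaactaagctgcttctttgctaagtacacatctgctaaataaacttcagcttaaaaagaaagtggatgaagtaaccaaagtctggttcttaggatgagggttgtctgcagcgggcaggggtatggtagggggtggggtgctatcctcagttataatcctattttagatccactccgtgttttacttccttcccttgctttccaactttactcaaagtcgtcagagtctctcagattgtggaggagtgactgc

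The Col4a2 window held 3 GC boxes and 1 CCAAT box, and the Col4a1 window 1 of each. The GC box of Col4a1 lies in the shared bases and is also 1 of the 3 counted for Col4a2. Lamb1 had 2 GC boxes and 1 CCAAT box, Lama2 had 1 GC box, and the Lamb2 window held none of these letters. The TATA box letters were in none of these 5 windows. Of all 32851 windows in the table, 35.7% held a GC box, 37.4% a CCAAT box and 13.6% a TATA box. Over the 31 windows of the 27 members listed, 16 held a GC box, 10 a CCAAT box and 5 a TATA box. G and C made up 74.0% of the Col4a1 window and 73.7% of the Col4a2 window, against 63.7% for Lamb1, 50.3% for Lama2 and 44.0% for Lamb2. A match describes the letters and is not a measured binding site.

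By the probe sets used, most collagen and laminin genes above the floor stayed within 1.5-fold of control. No member rose past 2-fold on any day, and those that fell were the laminin genes Lama2 and Lamb2 at day 1 and Lamb2 at days 3 and 6. That is 0 of 40 members higher and 2 lower at day 1, where 5.68% of all 8251 genes were higher and 6.34% lower. At day 3, 0 were higher and 1 lower, beside 2.88% and 2.47% of all genes. At day 6 it was again 0 and 1, beside 1.31% and 1.24%. Counts of 2, 1 and 1 lower among 40 members are close to these background rates and are not a result about the members as a set.

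At the looser threshold of 1.5-fold, 2 members were higher at day 1 (Col4a2 and Lamb1) and 5 lower (Col1a2, Col6a2, Col14a1, Lama2 and Lamb2), beside 12.1% and 13.9% of all genes. At day 3 none of the 40 was higher and 3 were lower (Col4a1, Lama2 and Lamb2), beside 7.51% and 8.01%. At day 6 none was higher and Lamb2 was lower, beside 6.02% and 5.93%. Among the 24 members whose mean over the arrays was above the floor, 16 (66.7%) stayed within 1.5-fold of control on all 3 days, as did 2887 of 5765 such genes (50.1%). This count depends on the probe sets used. Among the 16, Col1a1, Col3a1, Col5a1, Col6a1 and Col18a1 had another probe set, above the floor on average, that passed 1.5-fold on at least 1 day. For Col8a1 the day 6 value of 128 was raised to the floor, so its 1.47-fold is a lower bound. The median log2 changes of the 24 members were -0.11 at day 1, -0.03 at day 3 and -0.10 at day 6, beside -0.05, -0.01 and 0.00 for the 5765 genes. Over all 40 members the median was 0.00 on each day, as over all genes.

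**Figure D1:**
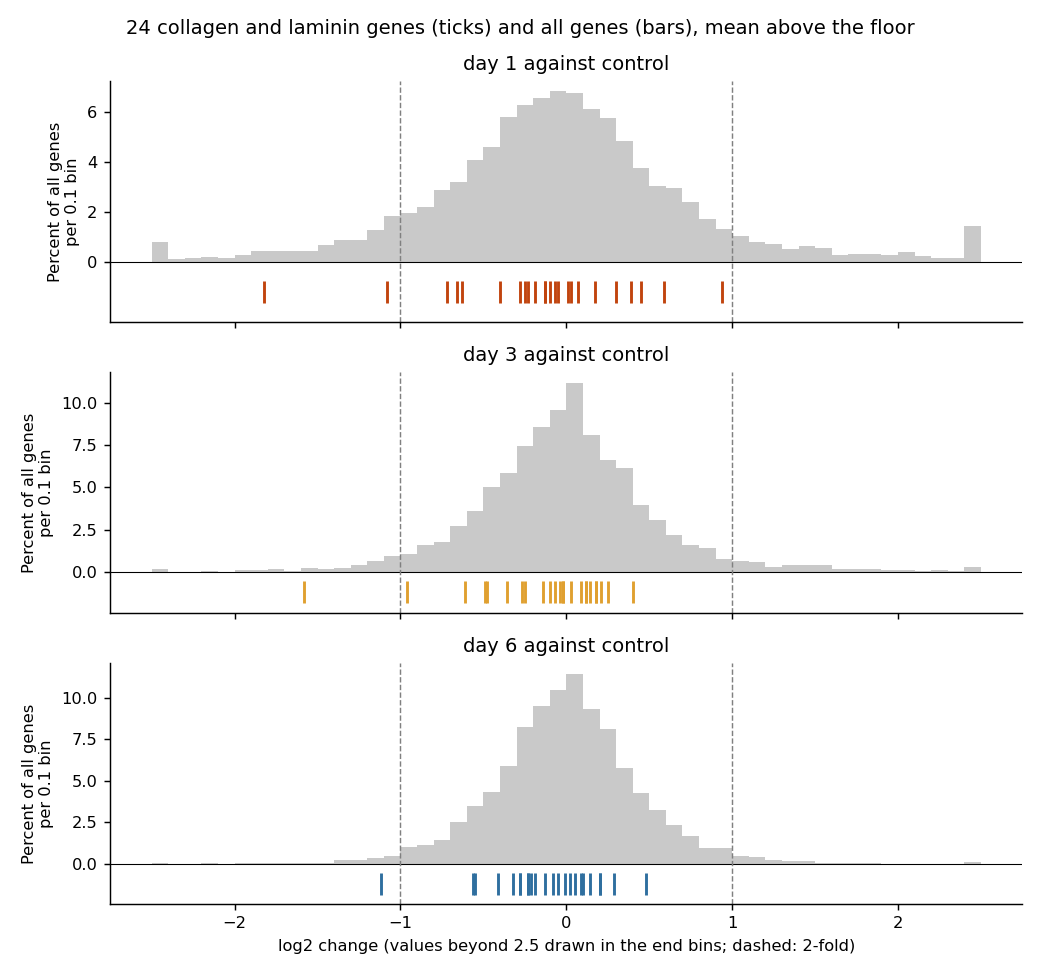
Grey bars show the percent of 5765 genes with a mean above the floor in bins of log2 change, for day 1, day 3 and day 6 against control (1 array each), and coloured ticks show the 24 collagen and laminin genes above the floor on average. Most ticks lie between the dashed 2-fold lines, with Lama2 at -1.82 on day 1 and Lamb2 at -1.58 on day 3 as the lowest.

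Between treated days, 0 members were higher and 2, Col4a1 and Lamb1, were lower at day 3 than at day 1, beside 4.42% and 4.76% of all genes. At day 6 against day 3, 0 of the 40 passed 2-fold either way, beside 1.14% of all genes higher and 2.01% lower.

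Fibrillar collagen genes were measured for types I, III and V with all of their values above the floor. Col3a1, the single chain of type III collagen, which is abundant in soft tissues, stood at 12592 in control, 12886 at day 1, 13876 at day 3 and 12145 at day 6. The 4 arrays thus lay within 1.14-fold of each other, the ratio of day 3 to day 6. Col1a1 and Col1a2 encode the chains that pair in type I collagen. Col1a1 was at 6738 in control, 6511 at day 1, 8902 at day 3 and 6376 at day 6, and Col1a2 was at 3457, 2232, 4121 and 2343 on the same arrays. By these probe sets day 3 was the highest array for both, with log2 changes against control of 0.40 for Col1a1 and 0.25 for Col1a2. Col1a2 was lower at days 1 and 6 (log2 -0.63 and -0.56) while Col1a1 lay close to control (-0.05 and -0.08). The second Col1a2 probe set did not share this: it gave -0.08 at day 1 and 0.36 at day 6, with day 6 its highest array.

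Type V collagen, which is built into type I fibrils and sets their width, stayed within 1.32-fold of control by the probe sets used. Col5a1 stood at 2115 in control, 1607 at day 1, 2009 at day 3 and 1699 at day 6. Col5a2, a neighbour of Col3a1 on mouse chromosome 1, stood at 4732, 5333, 4678 and 4134. The 1.32-fold departure was Col5a1 at day 1, where its second probe set fell 2.22-fold, as described below. The cartilage fibril genes Col2a1, Col11a1 and Col11a2 were at or below 94 units throughout, under the floor on every array.

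Collagen VI genes lay below control at day 1 and near it at day 3. Col6a1 was at 6838 in control, 5814 at day 1, 7254 at day 3 and 5620 at day 6; Col6a2, its neighbour on chromosome 10, was at 3877, 2355, 4211 and 4162. Col6a3, whose C-terminal end is released as endotrophin, was at 3765, 3095, 4257 and 3092. Day 1 was below control for each of these chains, by 1.18-fold for Col6a1, 1.65-fold for Col6a2 and 1.22-fold for Col6a3. The second Col6a1 probe set was 1.95-fold below control at day 1. By the probe sets used, day 3 lay within 1.13-fold of control for all of them.

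**Figure D2:**
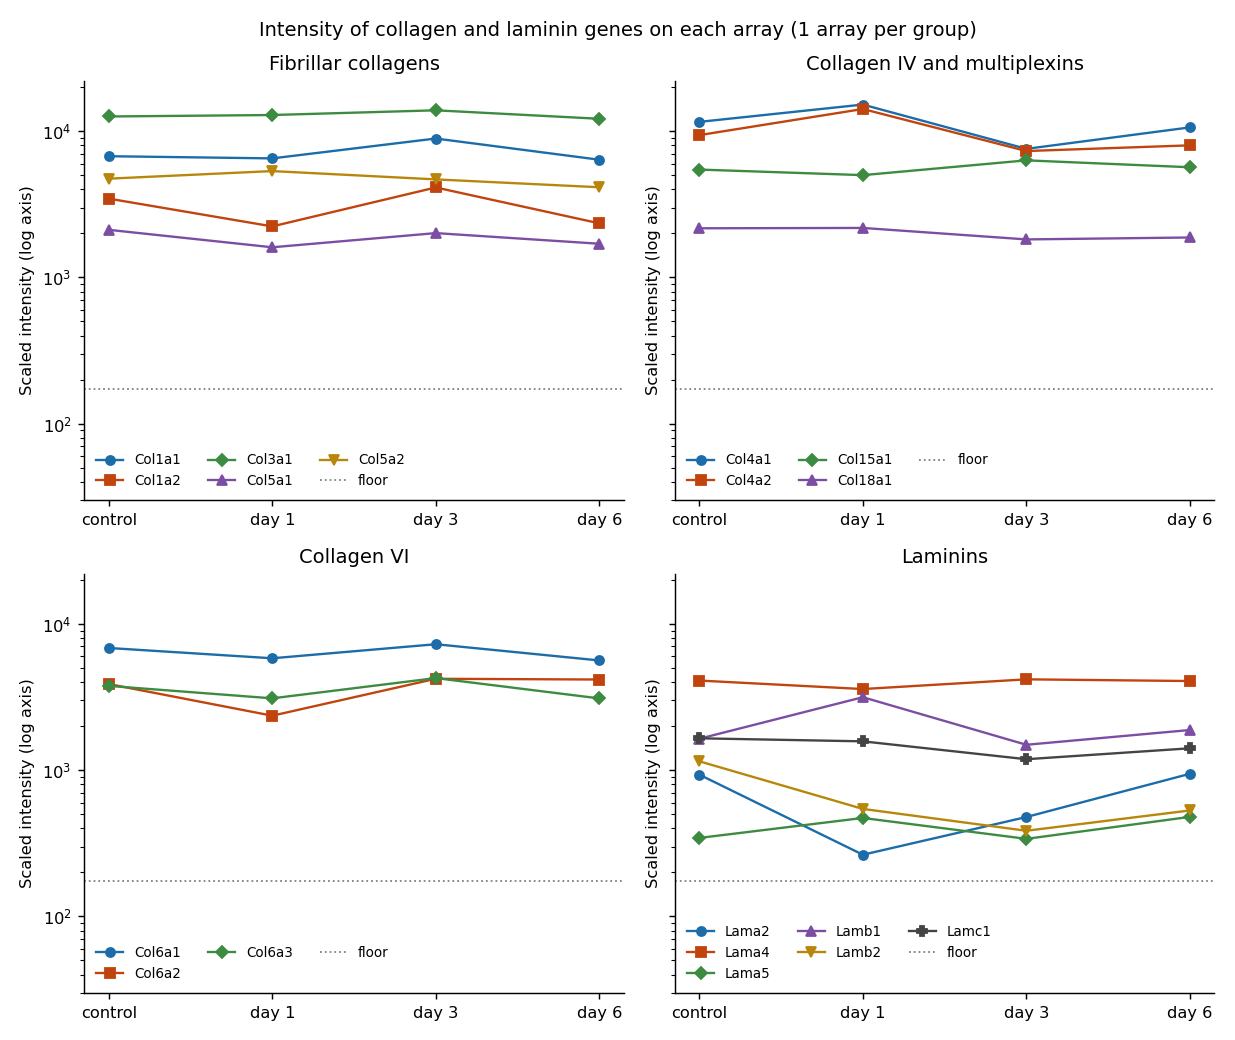
Scaled intensity (log axis) of 18 collagen and laminin genes on the control, day 1, day 3 and day 6 arrays, 1 array per group, with the floor of 174 units dotted; lines join the values of a gene and are no fit. Col4a1, Col4a2 and Lamb1 peak on the day 1 array, Lama2 has its lowest value there (264), and Lamb2 is lower on all treated arrays than on the control array.

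The main chains of basement membrane collagen IV, which assemble together, come from Col4a1 and Col4a2. Both genes had their highest value at day 1 and their lowest at day 3, and neither passed 2-fold against control. Col4a1 was at 11568 in control, 15190 at day 1, 7565 at day 3 and 10606 at day 6. Col4a2 was at 9391, 14166, 7309 and 7995 on the same arrays. The log2 changes at day 1 were 0.39 for Col4a1 and 0.59 for Col4a2, and at day 3 they were -0.61 and -0.36.

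Between the treated arrays, Col4a1 fell 2.01-fold at day 3 against day 1, and Col4a2 was 1.94-fold lower, short of the threshold. Both are under the 2.3-fold limit between probe sets, and with a pseudocount of 100 units in place of the floor Col4a1 was 1.99-fold lower and no longer passed. The changes of the 2 genes differed by no more than 0.36 on the log2 scale in any of the 5 comparisons, the largest gap being day 6 against day 3. As shown above, their annotated start regions overlap, and this similarity of values is a description over 4 arrays. Col4a5, a chain with a narrower tissue range, stood at 179 in control, 189 at day 1, 128 at day 3 and 205 at day 6, around the floor. Col4a3 and Col4a4, another neighbouring pair, known from the kidney filter, were between -132 and 70 units and so at background.

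The multiplexins Col15a1 and Col18a1 sit at the outer face of basement membranes and carry sugar chains. Col15a1 was at 5461 in control, 5002 at day 1, 6313 at day 3 and 5663 at day 6, within 1.16-fold of control on each treated day. Col18a1, which yields endostatin, was at 2167, 2179, 1819 and 1875 by the probe set used, within 1.19-fold. Its other probe sets gave another picture, described below.

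By the probe sets used, laminin genes held the largest changes against control. Dimmer Col18a1 probe sets also fell, as described below. Lama2 encodes the alpha chain of laminin in muscle and peripheral nerve, the chain lost in a congenital muscular dystrophy. It was at 931 in control, 264 at day 1, 478 at day 3 and 944 at day 6. It fell 3.53-fold at day 1, a log2 change of -1.82 and more than the 2.48-fold between probe sets, was 1.95-fold lower at day 3, and at day 6 stood within 1.01-fold of control. A single probe set reads Lama2, and with the floor raised to the 60th percentile of all values the day 1 change was -0.79 on the log2 scale, short of 2-fold.

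Lamb2, the beta chain of laminins in vessel walls, neuromuscular junctions and the kidney filter, was at 1149 in control, 543 at day 1, 385 at day 3 and 530 at day 6. All 3 treated arrays were below control, and they spread by less among themselves than their distance from it. Relative to control the gene fell 2.12-fold on day 1, 2.98-fold on day 3 and 2.17-fold on day 6. The day 3 and day 6 falls were larger than the difference that covers 95% of probe set pairs, and the day 1 fall was not. This gene too has a single probe set, and with the pseudocount the log2 changes were -0.96 at day 1 and -0.99 at day 6, both short of 2-fold, while day 3 still passed at -1.36.

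Lamb1, the beta chain found in most basement membranes, ran the other way at day 1. It was at 1639 in control, 3151 at day 1, 1490 at day 3 and 1880 at day 6. The day 1 value was 1.92-fold above control, short of the threshold, and the gene fell 2.11-fold at day 3 against day 1, under the 2.3-fold limit between probe sets. Its second probe set was at 997, 2256, 1215 and 1156, which is 2.26-fold higher at day 1 than in control and within 1.22-fold of control on the later days. For day 3 against day 1 it was 1.86-fold lower, and the call is lost with it or with the mean of both. Both probe sets therefore had their highest value at day 1. Against control, Lamb1 and Lamb2 differed in log2 change by 2.02 at day 1, 1.44 at day 3 and 1.31 at day 6, in each case with Lamb1 above Lamb2.

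The other laminin chains stayed near control. Lama4, the alpha chain of endothelial and fat cell basement membranes, was at 4095 in control, 3583 at day 1, 4174 at day 3 and 4064 at day 6, within 1.14-fold. Lamc1, the gamma chain shared by most laminins, was at 1650, 1573, 1187 and 1410, at most 1.39-fold below control. Lama5, an alpha chain of many epithelia and vessels, was at 344, 471, 339 and 479. Lama1, an alpha chain of the embryo and some adult epithelia, was above the floor on the day 6 array alone, at 228, against 50 in control. Lama3 and Lamb3, parts of the skin laminin, were at or below 85 units on every array.

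**Figure D3:**
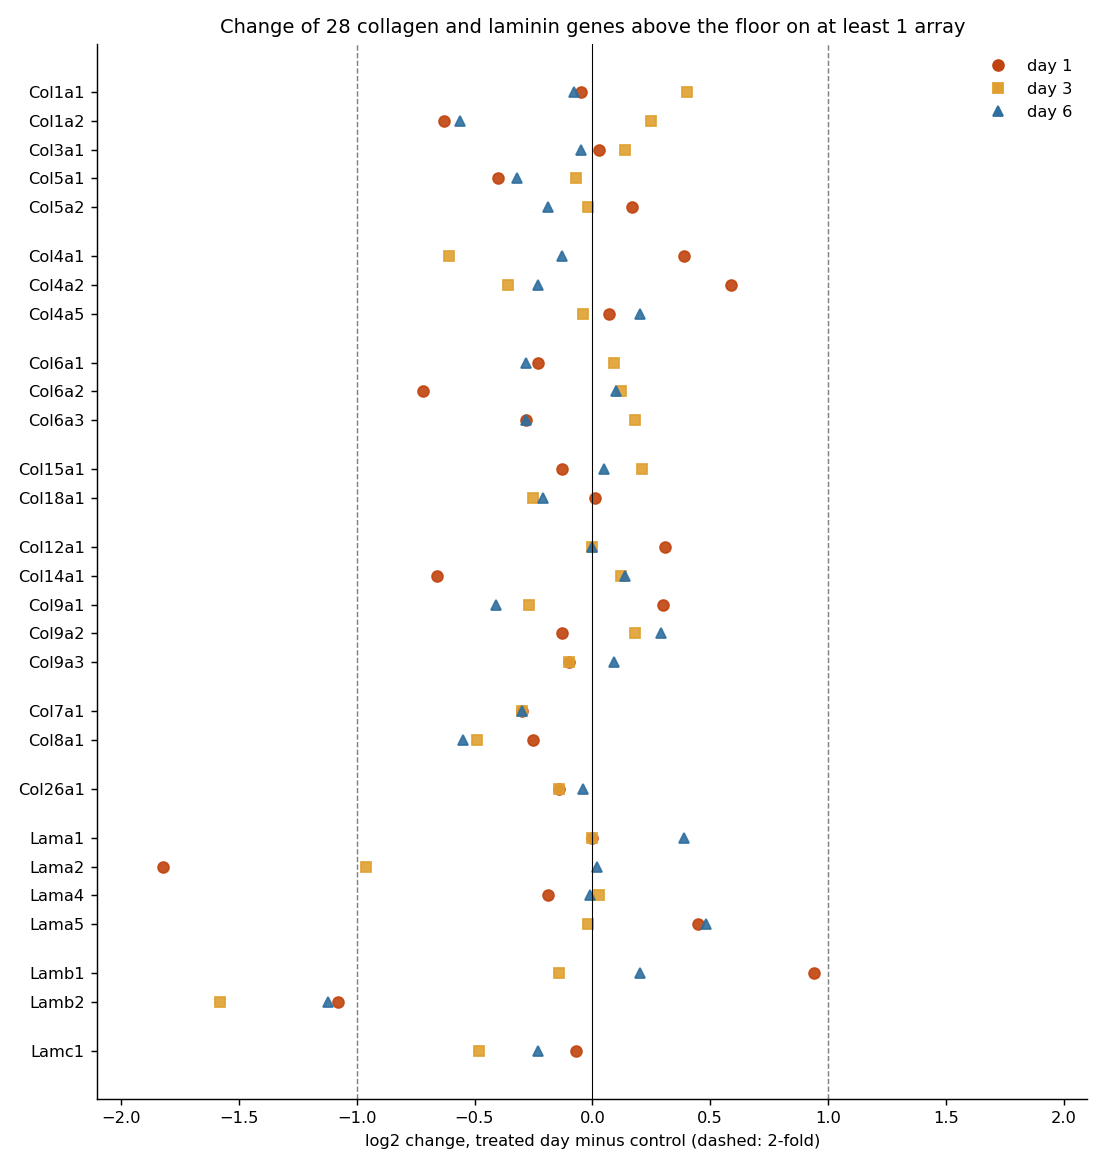
Log2 change on each treated day minus control for the 28 collagen and laminin genes above the floor on at least 1 array, in blocks by type; circles are day 1, squares day 3 and triangles day 6, and dashed lines mark 2-fold. Points past the dashed line belong to Lama2 at day 1 (-1.82) and to Lamb2 at days 1, 3 and 6 (-1.08, -1.58 and -1.12).

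The remaining collagens were low or level. Col14a1, a collagen attached to the surface of fibrils, was at 520 in control, 329 at day 1, 565 at day 3 and 572 at day 6, so that day 1 was the low array, at 1.58-fold below control. Col9a1, Col9a2 and Col9a3, known from cartilage, ranged between 250 and 956 units over all arrays and stayed within 1.33-fold of control. Col8a1, of vessel walls, was at 255, 215, 182 and 128, reaching the floor at day 6. Of the 40 members, 22 were above the floor on all 4 arrays, 6 on some (Col4a5, Col7a1, Col8a1, Col12a1, Col26a1 and Lama1) and 12 on none. Those 12 were Col2a1, Col4a3, Col4a4, Col10a1, Col11a1, Col11a2, Col13a1, Col17a1, Col19a1, Col22a1, Lama3 and Lamb3, with values from -132 to 154 units, and no change could be measured for them.

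Several genes were read by more than 1 probe set, and 7 had at least 2 that were above the floor on average. The largest disagreement was in Col18a1. The probe set used and a second one were on average the brightest of the gene; the second was at 2335 in control, 1557 at day 1, 1545 at day 3 and 1615 at day 6, or 1.45-fold to 1.51-fold below control. A dimmer probe set was at 926 in control, 397 at day 1, 247 at day 3 and 310 at day 6, and fell 2.33-fold, 3.75-fold and 2.99-fold. Another was at 519, 215, 259 and 187, and fell 2.42-fold, 2.0-fold and 2.78-fold. The last was at background, at 159 units or less.

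So 4 of the 5 probe sets of Col18a1 were above background, and they ran from no change to a fall on all days. The RefSeq table lists 2 start regions for Col18a1, and the gene is known to make a short and longer forms of the protein. Which transcripts each probe set reads was not tested.

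Smaller disagreements were seen in 4 other genes. The dimmer Col5a1 probe set was at 1286 in control, 579 at day 1, 1061 at day 3 and 857 at day 6, and fell 2.22-fold at day 1, where the brighter one was 1.32-fold below control. The dimmer Col6a1 probe set was 1.95-fold below control at day 1, against 1.18-fold for the brighter. For Col1a2 the dimmer probe set was at 1755, 1660, 2003 and 2248, so that day 6 was above control there and below it by the brighter one. The dimmest of 3 Col3a1 probe sets was at 1329, 1627, 2320 and 1127, with day 3 at 1.75-fold above control, where the brightest gave 1.10-fold.

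For Col1a1 the probe sets shared their pattern. The dimmer one was at 2705 in control, 2801 at day 1, 4472 at day 3 and 3283 at day 6, with day 3 again the highest array, 1.65-fold above control. For Lama4, Lama5, Lamc1 and Col9a3 a second probe set was at background on average, and for Col12a1, Col13a1 and Lamb3 all were.

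**Figure D4:**
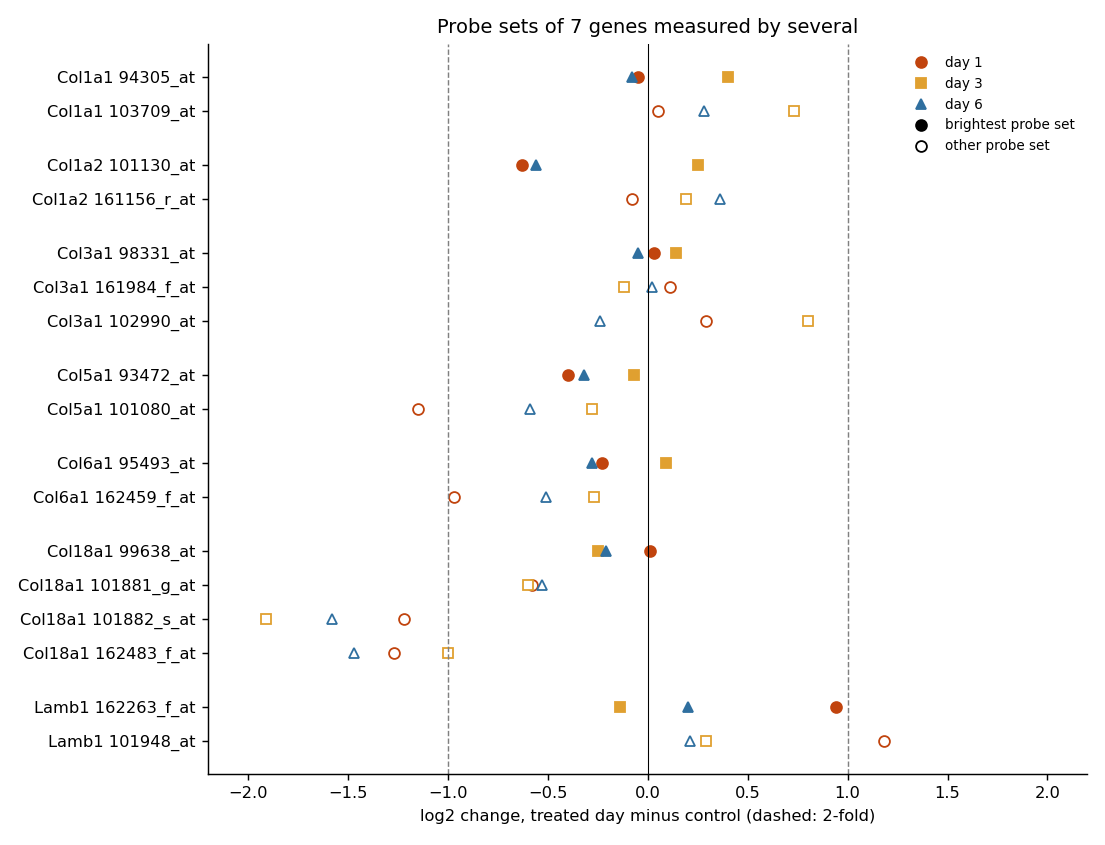
Log2 change on each treated day minus control for every probe set above the floor on average of the 7 genes with at least 2 of them; filled symbols are the probe set with the highest mean, open symbols the others, and dashed lines mark 2-fold. The 4 Col18a1 probe sets spread from 0.01 to -1.27 at day 1, while both Lamb1 probe sets lie near 1 (0.94 and 1.18).

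Genes that make collagen ready for assembly stayed near control as a group. Of 16 measured folding, processing and crosslinking genes, 1 was higher and 0 lower past 2-fold at day 1, beside 5.68% and 6.34% of all genes. On days 3 and 6, 0 passed, beside 2.88% higher and 2.47% lower at day 3 and 1.31% and 1.24% at day 6. These counts hold for the probe sets used. A second P4ha2 probe set, at 457, 210, 202 and 360, was 2.18-fold below control at day 1 and 2.26-fold at day 3. The one used was 1.15-fold and 1.34-fold below. The group's median log2 change was 0.08 at day 1, 0.00 at day 3 and -0.18 at day 6, beside 0.00 on each day over all genes. Bmp1, the proteinase that trims the C-terminal end of fibrillar procollagen, was at 548 in control, 1138 at day 1, 720 at day 3 and 453 at day 6, and rose 2.08-fold at day 1, under the 2.48-fold limit between probe sets. The call is lost with its second probe set (1.64-fold), with the mean of both and with the pseudocount. Lox, which crosslinks collagen and elastin, was at 598, 1166, 691 and 668, short of the threshold at day 1 (1.95-fold). Serpinh1, the collagen chaperone of the endoplasmic reticulum, was at 15148, 13009, 9357 and 8747, each later array lower than the one before. At day 3 against day 1, 0 of the 16 rose and 1, P4ha1, fell, beside 4.42% and 4.76% of all genes. P4ha1 was at 611, 996, 402 and 436. Its 2.48-fold fall was more than the 2.3-fold limit between probe sets, but the call is lost with the 60th percentile floor.

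Other basement membrane components held several falls at day 1. Of 12 measured, 0 rose and 4 fell at day 1, beside 5.68% and 6.34% of all genes. At day 3, 0 rose and 1 fell (2.88% and 2.47% of all genes), and at day 6 none passed, and the median log2 change was -0.57, -0.52 and -0.24. The nidogens, which link laminin to the collagen IV network, were both lower. Nid2 was at 2123 in control, 445 at day 1, 1081 at day 3 and 1116 at day 6, and fell 4.77-fold at day 1; Nid1 was at 1256, 515, 671 and 819, and fell 2.44-fold. Smoc1, a calcium-binding basement membrane protein, was at 7158, 2849, 4107 and 6154 and fell at day 1 (log2 -1.33), and the fibulin Fbln1 fell 2.03-fold, while Smoc2 fell 2.07-fold at day 3. The Fbln1 call is lost with the pseudocount and with the mean of its 4 probe sets, one of which was 1.04-fold below control, and the Smoc2 call is lost with the pseudocount. Hspg2, which encodes perlecan, was within 2-fold of control on all days, with log2 changes of -0.35, -0.23 and 0.50. Not all of the 12 were below control at day 1. Tinagl1, at 1207, 2356, 1037 and 2027, was 1.95-fold above control there. Fbln2 was 1.69-fold above and Tnc at least 1.41-fold above.

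Receptors for collagen and laminin moved in both directions. Of 15 measured, 2 rose and 4 fell at day 1 (5.68% and 6.34% of all genes), 1 rose and 2 fell at day 3 (2.88% and 2.47%), and 0 passed at day 6, with medians of -0.10, -0.19 and -0.14. Dag1, which encodes dystroglycan, a receptor for laminins that hold the Lama2 chain, was at 3692 in control, 1777 at day 1, 3464 at day 3 and 4412 at day 6. It fell 2.08-fold at day 1. Its second probe set, at 1313, 705, 1201 and 1867, was 1.86-fold lower there, and the call is lost with that probe set or the mean of both. Sgce, a sarcoglycan of the complex around dystroglycan, fell 2.39-fold at day 1. The collagen-binding kinase Ddr1 was at 2422, 733, 919 and 1268, and fell 3.31-fold at day 1 and 2.64-fold at day 3, and the syndecan Sdc2 fell 3.48-fold and 3.42-fold. The second Sdc2 probe set was at background, and both Sdc2 calls are lost when it is averaged in or when the floor is at the 60th percentile. Itgb1, the beta chain of most matrix-binding integrins, stayed within 1.25-fold of control. Cd44, a receptor for hyaluronan and collagen that leukocytes carry, rose at least 9.40-fold at day 1, to 1632 units, and at least 2.11-fold at day 3; the day 3 call is lost with the 60th percentile floor or the mean over its 3 probe sets, 2 of them at background.

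**Figure D5:**
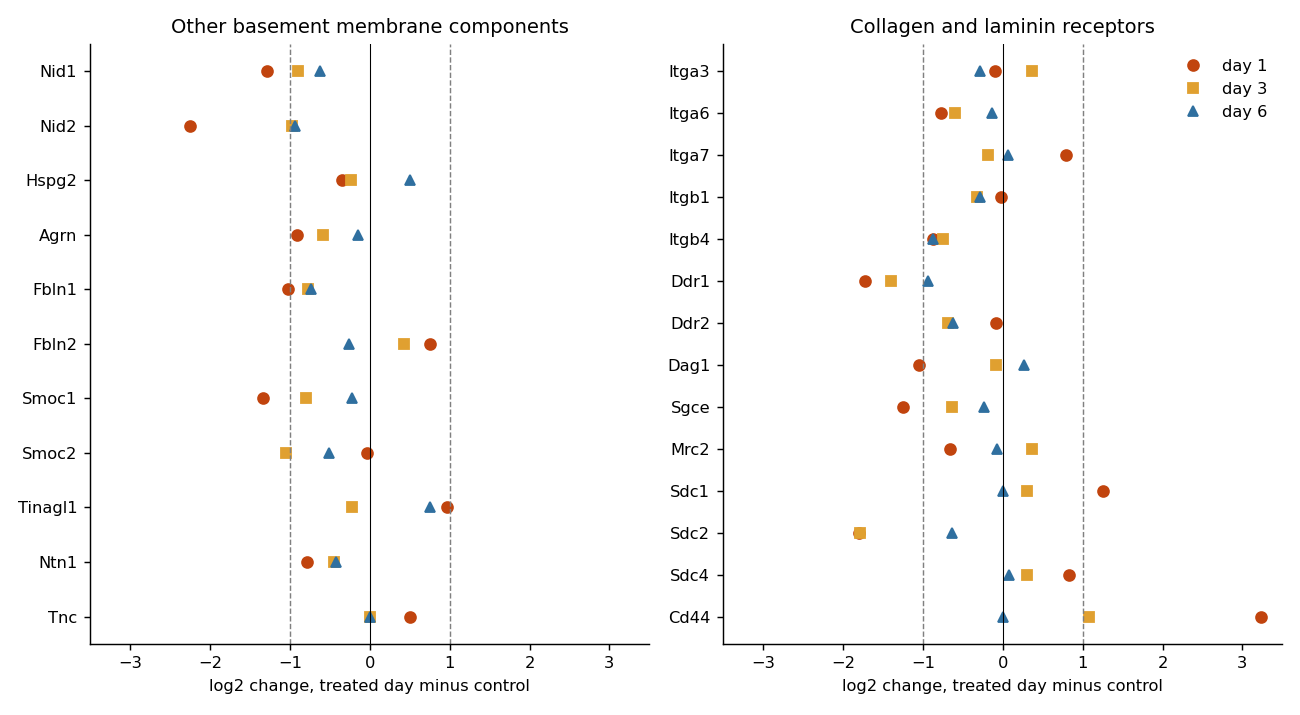
Log2 change on each treated day minus control for genes above the floor on at least 1 array: other basement membrane components on the left, collagen and laminin receptors on the right; circles are day 1, squares day 3, triangles day 6, and dashed lines mark 2-fold. Nid2 at day 1 (-2.25) is the lowest point on the left, and Cd44 at day 1 (3.23, a lower bound) is the highest on the right.

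Other fibrous matrix genes, 14 measured, had median changes of 0.00 at day 1, 0.02 at day 3 and 0.00 at day 6. Fbn2, Mfap4 and Ltbp1 lay under the floor throughout and enter these medians as 0. Fibronectin (Fn1), which is laid down early in wounds, was at 5859 in control, 12851 at day 1, 5644 at day 3 and 3391 at day 6, and rose 2.19-fold at day 1. Its high array was thus the same as for Col4a1, Col4a2 and Lamb1. Periostin (Postn), a matricellular protein that binds collagen I, was at 1670, 3532, 6037 and 3805, and rose 2.11-fold, 3.61-fold and 2.28-fold on days 1, 3 and 6. Vtn, vitronectin, fell 2.96-fold at day 1 and 2.54-fold at day 3, and Ltbp2 fell at least 2.06-fold at day 1. With the 60th percentile floor neither Vtn nor Ltbp2 passed, and with the pseudocount Ltbp2 did not. In all, 2 of the 14 rose and 2 fell at day 1, 1 rose and 1 fell at day 3, and 1 rose at day 6, against the same shares of all genes as above.

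Transforming growth factor β is the best known inducer of fibrillar collagen genes. Of 15 genes measured for its ligands, receptors and targets, 1 rose and 1 fell at day 1 (5.68% and 6.34% of all genes). At day 3, 1 rose and 1 fell (2.88% and 2.47%), and 0 passed at day 6. The medians were 0.00, 0.00 and -0.04. No change could be measured for Tgfb2, Tgfbr1, Tgfbr2, Smad3 and Skil, which lay under the floor throughout. These genes enter the medians as 0, so the medians do not show that the list was level. Tgfb1 was at 671 in control, 1337 at day 1, 1804 at day 3 and 650 at day 6, and rose 2.69-fold at day 3. Tgfbi, a secreted protein induced by this factor that binds collagen, was at 1895, 7521, 2746 and 1167, and rose 3.97-fold at day 1. Its second probe set was at background on all arrays, and the call is lost when both are averaged. Tgfb3 fell 2.06-fold at day 1 and the inhibitory Smad7 2.2-fold at day 3. Both calls are lost with the pseudocount, that of Tgfb3 also with the mean of its probe sets and that of Smad7 with the 60th percentile floor.

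Markers of the cells that make this matrix moved on the same arrays, where 5.68% of all genes were higher and 6.34% lower at day 1, 2.88% and 2.47% at day 3, and 1.31% and 1.24% at day 6. Of 10 measured fibroblast and preadipocyte markers, 0 rose and 4 fell at day 1 (Dpt, Thy1, Fbln1 and Clec3b) and 1, Clec3b, fell on days 3 and 6, the day 6 call being lost with the pseudocount. The Thy1 call is lost with the 60th percentile floor. Their summed intensity was 18448 in control, 11146 at day 1, 12565 at day 3 and 12702 at day 6. Among the 10, Pdgfra (1.44-fold) and Pdgfrb (1.52-fold) were above control at day 1, though a second Pdgfra probe set was 1.4-fold below. Fap was above control at days 3 and 6 (1.36-fold and 1.33-fold). Of 8 smooth muscle and pericyte markers, 4 fell at day 1, 3 at day 3 and 2 at day 6, and 0 rose; their summed intensity was 30028, 21577, 16080 and 16633. Myh11, the smooth muscle myosin, was at 2385, 705, 1069 and 1025, lower on all treated arrays than in control. Other markers of this list were above control on some days: Mylk at day 1, Des at days 1 and 3 and Rgs5 at day 6, by at most 1.16-fold.

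Of 10 endothelial markers, 3 fell at day 1, 2 at day 3 and 0 at day 6, with summed intensities of 23565 in control, 22640 at day 1, 15609 at day 3 and 21810 at day 6. With the 60th percentile floor 1 of the 3 day 1 calls, Cldn5, remained. Their median log2 change was -0.82 at day 1, -0.52 at day 3 and -0.19 at day 6, and the day 1 sum holds Eng at 12380 units against 7513 in control. The 8 fat cell markers summed to 178844, 100932, 153782 and 188250. Of them 4 were lower at day 1, and 1, Lep, was lower at days 3 and 6 (4.85-fold and 3.81-fold). Adipoq and Retn were the brightest of the 8, at 52054 and 47406 in control. The 8 macrophage and myeloid markers summed to 24499, 63600, 57750 and 26894, with 4 higher at days 1 and 3 and 1 at day 6. Each of these lists had all of its measured markers above the floor on at least 1 array. Their part in the changes of Lama2, Lamb2, Lamb1 and collagen IV was not tested.

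Traces of another tissue differed between the pools. Of 6 measured epididymis, testis and germ cell markers, 2 fell at days 1 and 3, beside 6.34% and 2.47% of all genes. They were Lcn5 and Adam7, both genes of the epididymis, which lies beside this fat pad. Lcn5 was at 3322 in control, 63 at day 1, 7 at day 3 and 8031 at day 6, and Adam7 at 2655, 200, 251 and 1847. Lcn5 rose 2.42-fold at day 6, where 1.31% of all genes were higher. Of the sperm chromatin genes, Tnp1 was at 1258, 1277, 1235 and 1710 by the probe set used. Its second probe set was at background, at -37, -30, -5 and -44. Prm1 and Tnp2 were highest at day 6 (307 and 264 units), and Prm2 was under the floor on every array. The list's summed intensity was 7478, 1847, 1779 and 12158, high in control and at day 6 and low at days 1 and 3, as Lama2 was. Vtn, of the fibrous matrix list, was also higher in control and at day 6, at 684, 231, 269 and 585. Lama1 was above the floor at day 6 alone. The part of epididymal RNA in the values of Lama2, Lama1, the other members and Vtn was not tested.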

How the data were processed

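RNA of 4 pools of epididymal fat was measured on 1 Affymetrix mouse expression array each. The deposited table gives linear probe set intensities as the authors made them, whole numbers of which 12.1% to 12.4% per array are at or below 0; no source used here names the software, background step or normalization. After 66 control probe sets were left out, 12422 remained, 10833 with 1 gene symbol in the array's annotation, 396 with several and 1193 not listed there. All 58 probe sets of the members matched RefSeq genes (GRCm38.p6) by Entrez ID, and 0 symbols changed. Each array was scaled by its trimmed mean (percentiles 2 to 98, factors 0.998 to 1.001). Values under the 40th percentile of all values were set to it, and intensities were put on the log2 scale. The software was Python 3.11.15, pandas 2.3.3 and NumPy 2.4.6. The calls were tried on simulated data with planted changes larger than 2-fold in bright probe sets. That trial does not cover changes near 2-fold or genes near the floor. With 1 array per group no test was run, and 2-fold was the threshold. Members and lists were chosen with earlier results of these data known. Members given on every array were 18 named by symbol, plus any past 2-fold against control and at least 2 times the floor. Of other lists, at most 5 genes past 2-fold were to be given. The others named were chosen after their values were seen. They include Lox, Serpinh1, P4ha1, Itgb1, Hspg2, Tinagl1, Col14a1, the Col9 genes, Col8a1, Col4a5 and Lama1. Alternatives were other floors, no scaling, quantile normalization, a pseudocount, means over probe sets, genes with a mean above the floor, a 1.5-fold threshold and, chosen after seeing the data, the dimmest probe set above the floor.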

Additional observations from a re-analysis of the deposited data

Results flagged for a closer look

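Lcn5, an epididymal lipocalin gene, moved in opposite directions on different days against the same control array, with log2 changes of -4.26 at day 1, -4.26 at day 3 and 1.27 at day 6. The changes at days 1 and 3 are bounds, since those arrays were at the floor. The difference between days was not tested, as each group has 1 array.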

How the results depend on the processing

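No paired analysis was possible because each group has 1 array. With no scaling, quantile normalization or only genes with a mean above the floor, each member count stayed within 1.5 times its value, and the median change of the members moved by less than the probe set error in all alternatives. Day 1 against control gave 1 member higher in place of 0 with the 25th percentile floor (Col12a1) and with the mean or the dimmest of the probe sets (Lamb1), and 2 at 1.5-fold. Members lower at day 1 were 1 with the 60th percentile floor (Lamb2) or the pseudocount (Lama2), 5 at 1.5-fold and 4 with the dimmest probe set (Col5a1, Col18a1, Lama2 and Lamb2). At day 3 the 1 lower member became 2 with the 25th percentile floor (with Col17a1) or the dimmest probe set (with Col18a1) and 3 at 1.5-fold. At day 6 it became 2 under the same floor and probe set choice with the same additions, while with the pseudocount the single lower member was Col17a1 in place of Lamb2, and 1 member, Lama1, was higher with the 25th percentile floor or the pseudocount. Day 3 against day 1 gave 4 members higher at 1.5-fold (Col1a2, Col6a2, Col14a1 and Lama2) and 1 lower, Col4a1, with the mean or the dimmest of the probe sets; with the pseudocount Col12a1 took the place of Col4a1 beside Lamb1. Day 6 against day 3 gave 1 higher with the 25th percentile floor or the pseudocount (Lama1) and at 1.5-fold (Lama2), and 1 lower at 1.5-fold (Col1a2) and with the dimmest probe set (Col3a1). Of 54 log2 changes of the 18 named members against control, 4 moved by more than the probe set error with the 60th percentile floor, 4 with the mean of probe sets and 13 with the dimmest; the cause was not tested. Signal near background leaves 12 members without a measured change.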

Other observations

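Markers of other cells that hold basement membranes also moved. Of 6 mesothelial markers, 2 fell at day 1 and 3 at days 3 and 6, and 0 rose. Over all genes, 5.68% were higher and 6.34% lower at day 1, 2.88% and 2.47% at day 3, and 1.31% and 1.24% at day 6. When probe sets were averaged, 1 was lower at day 1, and Krt19 no longer passed at days 1 and 6. The Msln calls at days 3 and 6 are lost with the 60th percentile floor, that at day 3 also with the pseudocount. The summed intensity of the 6 markers was 8696 in control, 4282 at day 1, 4004 at day 3 and 4558 at day 6. Upk3b made up most of this sum, at 5355, 2281, 2287 and 2377. Wt1 at day 3 (1.13-fold) and Krt8 at day 6 (1.23-fold) were above control. The 3 Schwann cell and nerve markers summed to 7277, 4445, 6987 and 6327, and 0 passed 2-fold. Of 6 skeletal muscle markers 1, Acta1, fell at days 3 and 6.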
